A study of Rattus norvegicus with 56 samples.

Results

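The imprinted Dlk1-Dio3 miRNA cluster was followed in the hippocampus of 56 rats, in small RNA sequencing libraries taken at 7 intervals after fluid percussion traumatic brain injury (TBI) or sham surgery. Members were chosen by name, as every listed rat miRNA whose number belongs to a gene of this cluster, with any letter or arm. The rule found 45 of the 367 listed miRNAs: 40 are 5p arms, 3 are 3p arms and 2 (miR-431 and miR-409b) carry no arm in their name. They come from 42 genes on chromosome 6, of which those of 10 members lie on the Meg3 and Rtl1 side and those of 35 on the miR-379 to miR-410 side (gene order as in RefSeq, rat assembly GRCr8). Most 3p arms of the cluster were not analysed here.

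Each library came from the hippocampus of a separate rat, with 4 TBI and 4 sham rats at each interval (24 h, 2 w, 1 m, 2 m, 3 m, 6 m or 1 y after surgery). The sham group of each interval had surgery without the percussion and was taken at the same interval. Genotype, strain, sex and age are not given in the sources used here, and no transgene or drug is named for either group. All members were counted in all 56 libraries, so that the cluster could be described by treatment, by interval and from rat to rat.

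The Dlk1-Dio3 region is imprinted. Most of its miRNAs are processed from long noncoding transcripts of the maternal chromosome that begin near Meg3. The paternal chromosome expresses protein-coding genes such as Dlk1, Rtl1 and Dio3. In RefSeq, miR-299b-3p, miR-299b-5p and miR-409b lie on the opposite strand to the other members with a listed strand. The miRNAs of the Rtl1 portion are encoded opposite to Rtl1, and those of the miR-379 to miR-410 portion lie close together in a long array that is highly expressed in brain. Neuronal activity is known to raise transcription of this array through Mef2, and miR-134, one of its members, acts in dendritic spines by repressing Limk1.

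RefSeq held the mature sequence of 43 of the 45 members, and those on which the results below turn are shown 5′ to 3′ with the seed, bases 2 to 8, in capitals. The first are the 3 most abundant members, of which miR-379-5p and miR-411-5p come from the first genes of the array:
miR-434-5p: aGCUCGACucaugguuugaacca
miR-411-5p: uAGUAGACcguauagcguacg
miR-379-5p: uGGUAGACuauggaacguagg

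The miR-376 genes are neighbours, and their transcripts are a classic substrate of A-to-I RNA editing in brain. They are shown because miR-376a-5p was the one member called for TBI over all intervals. The seed UGGAUAU is shared by miR-376b-5p and miR-376c-5p, and miR-376a-5p has another seed.
miR-376a-5p: gGUAGAUUcuccuucuaugag
miR-376b-5p: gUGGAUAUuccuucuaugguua
miR-376c-5p: gUGGAUAUuccuucuauguuu

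The next members differed most between intervals, and miR-770-5p, from the Meg3 end of the region, varied most from library to library of those tested (coefficient of variation 50.04%, 55 libraries, treatments and intervals together):
miR-770-5p: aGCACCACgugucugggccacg
miR-382-5p: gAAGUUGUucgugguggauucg
miR-412-5p: uGGUCGACcagcuggaaagu
miR-409a-5p: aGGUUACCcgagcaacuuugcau
miR-154-5p: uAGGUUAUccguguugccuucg

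A second shared seed, GGUUGUC, was held by miR-494-5p, miR-496-5p and miR-410-5p, 3 members of low level. The last pair is shown because its counts were the same in all 56 libraries. The 17 bases listed for miR-299b-3p are the start of miR-299a-3p, so reads of the pair cannot be told apart, and 44 distinct members remained.
miR-299a-3p: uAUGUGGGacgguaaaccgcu
miR-299b-3p: uAUGUGGGacgguaaac

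Libraries held between 2083604 and 12468979 miRNA counts, apart from that of rat X747 (TBI, 2 m) with 69628. Results that use it are given with and without it where they changed. No 2 libraries of a group were alike within sampling noise (over 84 pairs the chi-square was at least 17.5 per degree of freedom). Neuron-enriched miRNAs (miR-9a, miR-124, miR-128, miR-129, miR-137, miR-153 and miR-218a) summed to 148580 to 355372 CPM (counts normalised to the scaled library size) and choroid plexus miRNAs (miR-204, miR-211 and miR-448) to 1136 to 20830 CPM. All miRNAs of the cell type marker lists, here and below, were 5p arms, so their sums hold no 3p arm.

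The members, 40 of them 5p arms, took a small and steady share of the counts of listed miRNAs. It lay between 2.26% and 3.36% with a median of 2.82%. Here the cluster means these members, with miR-299a-3p and miR-299b-3p counted once. Its share and the order within it thus leave out most 3p arms. Within the cluster the levels were very unequal. The mean over 56 libraries was 5658 CPM for miR-434-5p, 5614 CPM for miR-411-5p and 4786 CPM for miR-379-5p, and these 3 made up 56.9% of the cluster. With miR-541-5p (2154 CPM), miR-369-5p (1794 CPM) and miR-382-5p (1458 CPM) the share was 76.1%. Counts of different miRNAs also depend on how well each is ligated and amplified, so this order is one of counts and not of molecules.

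The highest member stood 53.2-fold above the median of those tested. A filter on low counts over all libraries was not passed by 6 members. Of these, miR-409b had no count in any of the 56 libraries, miR-758-5p none in 44 and miR-299b-5p none in 29, while miR-494-5p, miR-496-5p and miR-1193-5p had means of 0.904, 1.17 and 0.623 CPM. The 39 that passed, 38 of them distinct, were tested together with 205 other miRNAs.

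**Figure D1:**
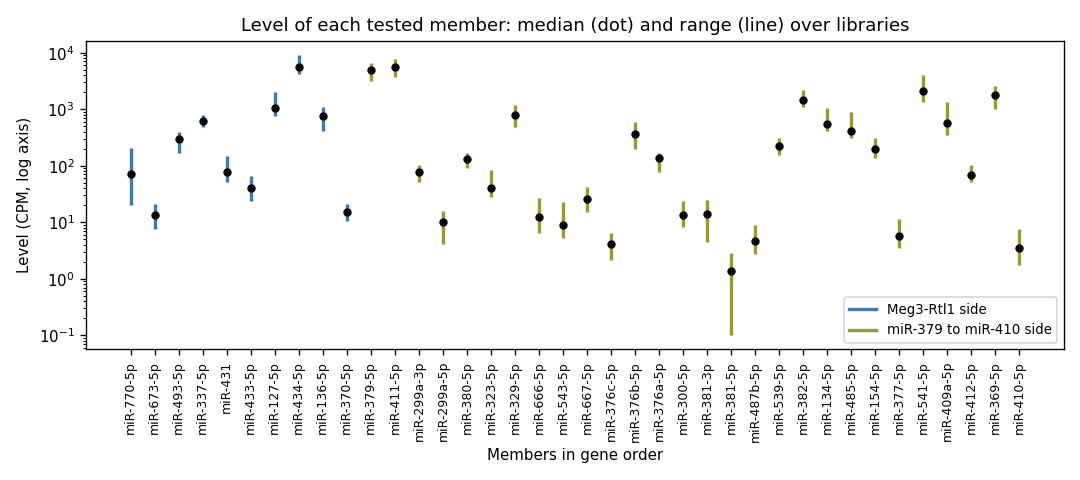
Level of the 38 distinct tested members in gene order, in CPM on a log axis. Dots are medians over 56 libraries and lines run from the lowest to the highest library, without rat X747 for the lowest. The line of miR-381-5p, which was at 0 in some libraries, is drawn from 0.1 CPM, and abundant and rare members lie intermixed along the region.

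Summed over the 44 distinct members, the cluster stood at 28530 ± 2319 CPM (SD, n = 28) in sham rats and at 27861 ± 2666 CPM (SD, n = 28) in TBI rats. The lowest and highest libraries were 23458 and 33536 CPM in sham rats and 21820 and 34144 CPM in TBI rats, so each range overlapped most of the other. Both extremes of the series were TBI rats at 1 m. The coefficient of variation over all 56 libraries was 8.86%, which is below that of any single tested member (lowest 10.4%, miR-337-5p, over 55 libraries).

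By interval, the sham mean was lowest at 24 h (26595 ± 2874 CPM, n = 4) and highest at 6 m (30725 ± 2279 CPM, n = 4), and the TBI mean was lowest at 24 h (26058 ± 1962 CPM, n = 4) and highest at 1 y (30083 ± 1435 CPM, n = 4). At 6 m the 4 sham rats spanned 27977 to 33536 CPM and the 4 TBI rats 25681 to 29574 CPM, which overlap. The sum is a description and carries no test. In bulk tissue, fewer cells of a type and less RNA per cell cannot be told apart.

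**Figure D2:**
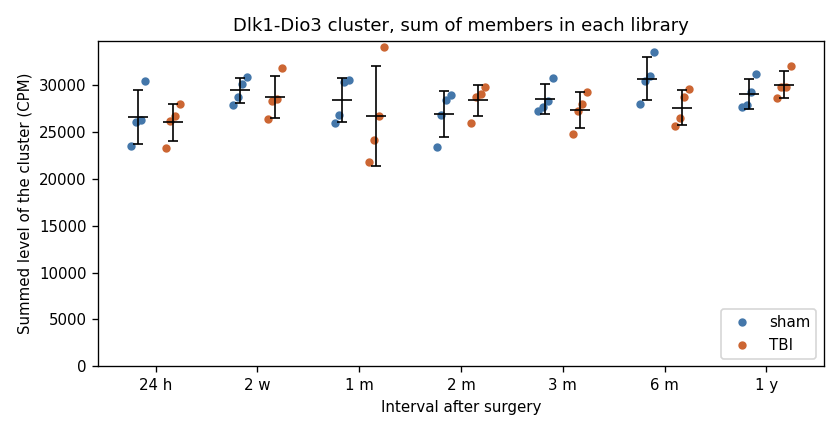
Sum of the 44 distinct members in each library (CPM) by interval after surgery. Points are rats, horizontal marks are group means and bars are SD (n = 4 rats). Sham and TBI rats overlap at all 7 intervals, and the widest spread is that of TBI rats at 1 m, from 21820 to 34144 CPM.

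The first comparison asked, at each interval, whether TBI rats differed from their own sham rats. No member had an adjusted p under 0.05 at any of the 7 intervals (edgeR quasi-likelihood test, Benjamini-Hochberg over all miRNAs tested), and edgeR's likelihood ratio test and DESeq2 likewise called 0 members at each. Over all miRNAs the called share was 1.72% at 24 h, 0.417% at 1 m and 0.00% at the other intervals. An unadjusted p under 0.05 was reached by 4 of 40 members at 1 m (all miRNAs 17.5%), 2 of 39 at 2 m (7.20%) and 5 of 38 at 1 y (9.78%). It was reached by 0 of 38 members at the other 4 intervals, where the shares over all miRNAs were 5.15% (24 h), 9.25% (2 w), 5.45% (3 m) and 4.91% (6 m).

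The median member was close to sham throughout. Its log2 fold change, TBI over sham, ran from -0.12 at 6 m (all miRNAs 0.00) to 0.02 at 3 m (all miRNAs 0.06), and the medians of the first 4 intervals lay between -0.06 and -0.04. At 6 m, 31 of 38 members were below 0, beside 49.6% of all miRNAs, and the lowest adjusted p of a member was 0.961 (edgeR). At 2 w 28 of 38 members were below 0 (all miRNAs 49.3%), at 24 h 24 of 38 (53.6%), at 2 m 24 of 39 (55.5%) and at 1 y 23 of 38 (54.2%). The counts were 22 of 40 at 1 m (47.1%) and 15 of 38 at 3 m (34.5%). Unless called distinct, the members counted in these comparisons include both miR-299a-3p and miR-299b-3p, whose values are identical.

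At 1 m the lowest p was that of miR-136-5p, which is encoded opposite to Rtl1. Its 4 sham rats had 567, 814, 974 and 1000 CPM and its 4 TBI rats 441, 464, 615 and 643 CPM. The groups overlap through 1 sham rat, and the log2 fold change was -0.58 (SE 0.22, adjusted p = 0.238, edgeR). Next came miR-376b-5p with sham rats at 361, 375, 401 and 468 CPM and TBI rats at 200, 270, 279 and 349 CPM, a log2 fold change of -0.50 (SE 0.20, adjusted p = 0.238, edgeR). All 4 TBI rats were below all 4 sham rats.

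Groups did not overlap at 1 m for 4 of 40 members, miR-376a-5p, miR-376b-5p, miR-376c-5p and miR-411-5p, all lower in TBI rats. The same held for 10% of all miRNAs tested, so the members' share equalled the background. For miR-411-5p the sham rats lay at 5356, 5455, 5663 and 6171 CPM and the TBI rats at 3685, 4216, 4468 and 5022 CPM. When all 56 libraries shared 1 estimate of the spread, 4 members were called at 1 m, all lower: miR-136-5p, miR-376a-5p, miR-376b-5p and miR-411-5p. In that fit 15.2% of all miRNAs were called at 1 m and 10.3% of members.

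At 2 m the groups did not overlap for 4 of 39 members (background 5.08%): miR-376a-5p and miR-299a-5p lower, miR-434-5p and miR-493-5p higher. Rat X747 held 1 count of miR-299a-5p. Sham rats had 4466, 6047, 6163 and 6361 CPM of miR-434-5p and TBI rats 6478, 6589, 7122 and 7124 CPM. Sham rats had 180, 205, 250 and 285 CPM of miR-493-5p and TBI rats 286, 298, 340 and 345 CPM, and the highest sham rat nearly met the lowest TBI rat. Its log2 fold change was 0.45 (SE 0.19, adjusted p = 0.596, edgeR).

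At 1 y 4 of 38 members did not overlap (background 5.33%): miR-329-5p, miR-409a-5p and miR-434-5p higher and miR-485-5p lower. The number at the end of each sample title occurs in pairs within a group at the other intervals, but at 1 y each occurs once in the sham and once in the TBI group. If it counts samples within a sequencing run, run may go with treatment at 1 y, and the 2 then cannot be told apart there. Sham rats had 765, 772, 866 and 870 CPM of miR-329-5p and TBI rats 884, 968, 996 and 1042 CPM, a log2 fold change of 0.24 (SE 0.075, adjusted p = 0.431, edgeR). For miR-485-5p, which is known to repress the synaptic vesicle protein SV2A, sham rats had 376.7, 376.97, 383 and 411.8 CPM and TBI rats 331, 334, 351 and 362 CPM. At 1 m the same miRNA had been higher in TBI rats, at 377.5, 529, 538 and 877 CPM against 338.4, 378.6, 449 and 488 CPM, with overlapping groups and an adjusted p of 0.272 (edgeR).

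At the remaining intervals the members of lowest p were miR-323-5p at 24 h (log2 fold change -0.47, SE 0.22, adjusted p = 0.902, edgeR), miR-337-5p at 2 w (-0.19, SE 0.10, adjusted p = 0.723), miR-433-5p at 3 m (0.44, SE 0.23, adjusted p = 0.533) and miR-431 at 6 m (-0.24, SE 0.14, adjusted p = 0.961). No member's groups stood apart at these 4 intervals. Across all miRNAs 4.29%, 5.29%, 4.09% and 1.34% did so.

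Pooling the intervals, as the mean of the 7 TBI groups against the mean of the 7 sham groups, 1 of 39 members was called. This was miR-376a-5p, lower in TBI rats by a log2 fold change of -0.18 (SE 0.052, adjusted p = 0.0318, edgeR). Over all miRNAs 4.51% were called, 0.410% lower and 4.10% higher, and miR-376a-5p was the single miRNA called lower. Its call was lost when libraries were scaled by total count (adjusted p = 0.0722), with no filter (adjusted p = 0.0634) and on leaving out any 1 of 10 rats (adjusted p up to 0.0618). Those rats were X60, X794, tube54 and tube55 of the sham groups and X52, X748, X768, tube24, tube59 and tube60 of the TBI groups. Without rat X747 it remained (adjusted p = 0.0334).

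The difference of miR-376a-5p was largest at 1 m and 2 m. At 1 m its sham rats had 136.7, 149, 151 and 155.5 CPM and its TBI rats 76.5, 90.7, 115 and 133.6 CPM. At 2 m the sham rats had 132, 137.4, 153.2 and 168 CPM and the TBI rats 80.4 (rat X747, from 7 counts), 97.5, 99.5 and 125 CPM. All TBI rats were below all sham rats at both. The log2 fold change was -0.47 (SE 0.20, adjusted p = 0.244, edgeR) at 1 m and -0.53 (SE 0.18, adjusted p = 0.4661, edgeR) at 2 m, and -0.50 at 2 m without rat X747.

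Its log2 fold change was -0.17 at 24 h and -0.16 at 2 w, with overlapping groups. The later values were 0.12 (3 m), -0.07 (6 m) and 0.12 (1 y), also with overlap. At 1 y its sham rats had 125, 140, 152 and 152 CPM and its TBI rats 146, 156, 159 and 160 CPM. Whether the TBI effect differs between intervals was tested with 6 interaction terms. No member was called (background 2.87%), and the lowest adjusted p was that of miR-376a-5p (0.143, edgeR quasi-likelihood test; 3 members, and 14.3% of all miRNAs, had an unadjusted p under 0.05, and the likelihood ratio test and DESeq2 also called 0). Without rat X757 (TBI, 1 m) or rat X749 (TBI, 2 m) miR-376a-5p was called, with adjusted p of 0.0303 and 0.0420.

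The next members by p in the pooled comparison were also lower in TBI rats but were not called. These were miR-300-5p (-0.22, SE 0.085, adjusted p = 0.178, edgeR), miR-376b-5p (-0.14, SE 0.056, adjusted p = 0.201), miR-154-5p (-0.13, SE 0.059, adjusted p = 0.309) and miR-136-5p (-0.14, SE 0.070, adjusted p = 0.329). Of the 39 members, 29 had a log2 fold change below 0, against 56.1% of all miRNAs, and the median was -0.06 against -0.01. Leukocyte and microglial miRNAs (miR-142, miR-223, miR-150 and miR-155) were the one marker list with calls here, 2 of 4 higher, with a summed level of 821 to 2396 CPM in sham rats and 853 to 1624 CPM in TBI rats. No marker miRNA was at 0 in all libraries. Their part in the members' differences was not tested.

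**Figure D3:**
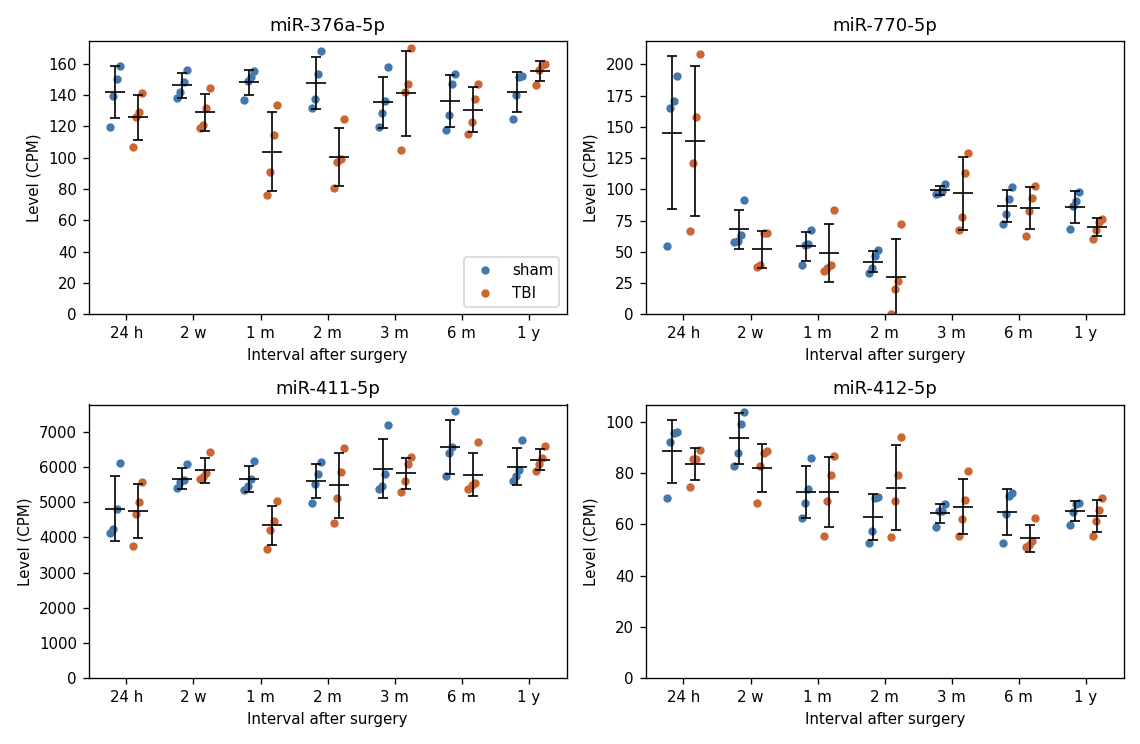
Levels (CPM) of 4 members in each rat by interval after surgery: miR-376a-5p, miR-770-5p, miR-411-5p and miR-412-5p. Points are rats, horizontal marks are group means and bars are SD (n = 4), cut at 0 for miR-770-5p in TBI rats at 2 m, where rat X747 is at 0. TBI rats lie below sham rats at 1 m and 2 m for miR-376a-5p, and miR-770-5p is lowest at 2 m in both treatments.

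More members differed between intervals than between treatments. Taking TBI and sham rats together, 19 of 39 members (48.7%) differed between the 7 intervals (edgeR quasi-likelihood test, adjusted p under 0.05), beside 56.1% of all miRNAs (17 of 40 without rat X747). The members' share was thus no higher than that of hippocampal miRNAs in general. Rat age goes with the interval and cannot be told apart from it. Times of storage and of library preparation are not given in the sources used here and may also go with it.

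The strongest was miR-770-5p (adjusted p = 2.07e-07, edgeR), whose gene lies within Meg3. Sham rats had 54.8, 165, 171 and 190 CPM at 24 h, 33.0, 37.0, 46.4 and 51.4 CPM at 2 m and 96.4, 97.3, 99.1 and 104 CPM at 3 m. TBI rats had 66.9, 122, 158 and 209 CPM at 24 h, 0, 20.5, 26.8 and 72.6 CPM at 2 m and 67.2, 77.6, 113 and 129.4 CPM at 3 m. In both treatments the level was highest at 24 h, lowest at 2 m and higher again at 3 m. The value of 0 is that of rat X747, where a count of 0 allows up to 3 counts, or 34.4 CPM at its depth.

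A like course at a narrower range was seen for miR-382-5p (adjusted p = 2.78e-05, edgeR). Its sham rats had 1266, 1698, 1769 and 2148 CPM at 24 h, 1116, 1129, 1180 and 1236 CPM at 2 m and 1580, 1581, 1631 and 1704 CPM at 3 m, and all 4 sham rats at 2 m were below all sham rats at 24 h and 3 m. miR-770-5p and miR-382-5p were the 2 members called both in sham rats alone and in TBI rats alone. Within each treatment fewer members passed, 9 of 39 in sham rats (background 27.1%) and 6 of 39 in TBI rats (background 25%).

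Other members ran another course. miR-412-5p (adjusted p = 2.98e-05, edgeR) was high early, with sham rats at 82.7, 87.9, 99.1 and 104 CPM at 2 w and at 52.6, 64.0, 70.8 and 72.0 CPM at 6 m. In sham rats miR-409a-5p (adjusted p = 0.000189) had its peak where miR-770-5p was lowest, at 602, 669, 897 and 923 CPM at 2 m. At 3 m they had 353, 427, 449 and 520 CPM. miR-154-5p (adjusted p = 0.000550) did likewise, with sham rats at 229, 262, 266 and 294 CPM at 2 m and 151, 151, 157 and 186 CPM at 3 m. In TBI rats a peak at 2 m depended on rat X747. It was the highest of all libraries in miR-409a-5p (117 counts) and miR-154-5p (27 counts). TBI rats at 2 m had 364 (rat X749), 711, 991 and 1343 CPM (rat X747) of miR-409a-5p. Of miR-154-5p they had 158 (rat X749), 182.7, 263 and 310 CPM (rat X747). These values overlapped those of sham rats at 2 m. Without rat X747 the TBI mean log2 level was not highest at 2 m. For miR-409a-5p it then stood 0.24 above its overall mean at 1 m and 0.17 at 2 m. For miR-154-5p it stood 0.02 above at 2 m and 0.03 at 6 m. In TBI rats alone miR-412-5p, miR-409a-5p and miR-154-5p were not called (adjusted p = 0.0782, 0.118 and 0.351, edgeR).

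Members of the region stood on both sides of their own means at the same interval. The same split was not counted for the other miRNAs, so it describes the members and does not set them apart. Averaged over both treatments, 20 of 38 distinct members were above their own mean at 2 m and 18 below it, with a range of log2 values from -0.92 (miR-770-5p) to 0.31 (miR-433-5p). At 24 h the split was 19 and 19. The most one-sided interval was 3 m, with 12 above and 26 below, and a median of -0.03.

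Marker lists of other cell types moved with the interval too. All 3 choroid plexus miRNAs were called, with group medians of the sum from 1270 CPM (sham, 2 m) to 11043 CPM (sham, 3 m), all 4 leukocyte and microglial miRNAs, from 907 CPM (sham, 1 m) to 1495 CPM (TBI, 6 m), and 3 of 7 neuron-enriched miRNAs, from 197034 CPM (TBI, 2 m) to 289220 CPM (TBI, 2 w). Of the rest, 1 of 2 oligodendrocyte, 1 of 3 vessel wall and 0 of 2 red blood cell miRNAs were called. Their part in the members' differences was not tested.

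**Figure D4:**
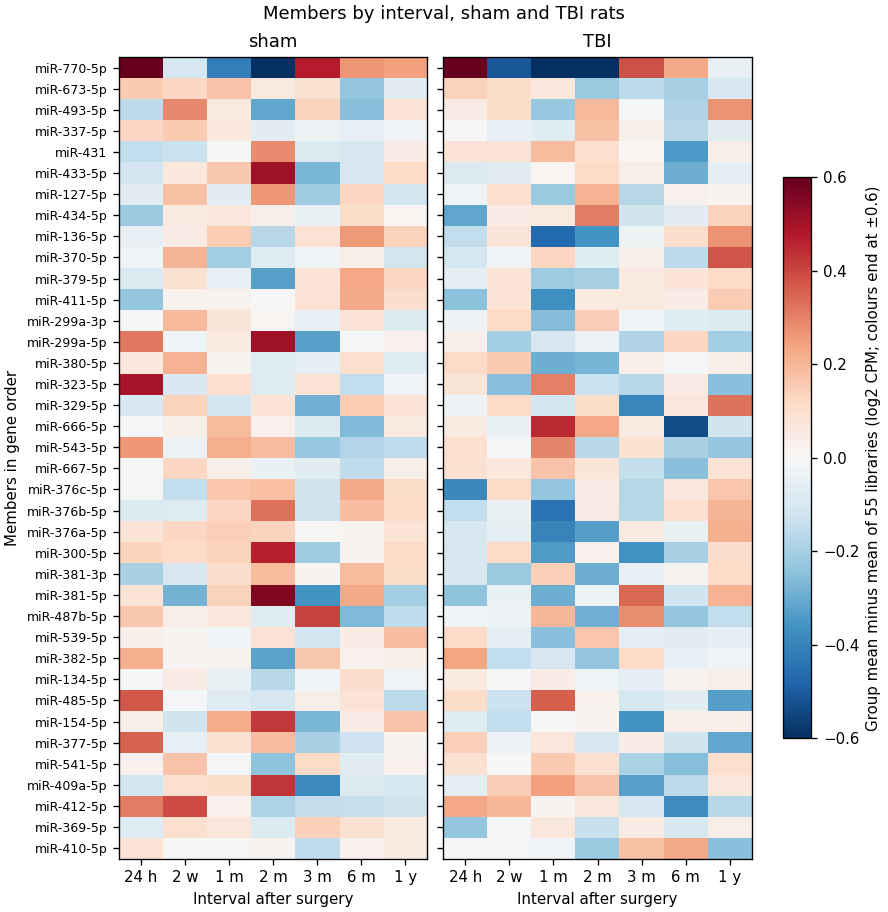
Mean log2 CPM of each distinct tested member (38, in gene order) in each group, minus its mean over 55 libraries (rat X747 left out), for sham rats on the left and TBI rats on the right. Red is above and blue below the mean, with colours ending at 0.6 in either direction. The row of miR-770-5p is red at 24 h and 3 m and blue at 1 m and 2 m in both panels, and neighbouring rows often differ in colour.

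Between the last and the first interval, 8 of 39 members were called (20.5%, beside 18.9% of all miRNAs), 2 higher at 1 y (background 7.79%) and 6 lower (background 11.1%). The higher ones were among the most abundant of the cluster. For miR-411-5p sham rats had 4122, 4230, 4802 and 6115 CPM at 24 h and 5610, 5757, 5922 and 6770 CPM at 1 y, and TBI rats 3749, 4659, 5001 and 5569 CPM at 24 h and 5899, 6081, 6256 and 6593 CPM at 1 y. The log2 fold change was 0.35 (SE 0.084, adjusted p = 0.00266, edgeR), and the TBI groups do not overlap while the sham groups do.

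For miR-434-5p the log2 fold change was 0.34 (SE 0.093, adjusted p = 0.00784, edgeR). Its rats spanned 4177 to 5299 CPM at 24 h and 5334 to 6632 CPM at 1 y, so that all 8 rats at 1 y were above all 8 at 24 h. Among the lower members, miR-770-5p fell by 0.87 on the log2 scale (SE 0.23, adjusted p = 0.00607, edgeR), miR-412-5p by 0.42 (SE 0.10, adjusted p = 0.00321) and miR-485-5p by 0.53 (SE 0.15, adjusted p = 0.00812). The other members called were miR-323-5p (-0.43), miR-543-5p (-0.44) and miR-382-5p (-0.24).

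None of the 8 was called in sham rats alone (background 1.67%) or in TBI rats alone (background 4.17%), where the lowest adjusted p among members were 0.0956 and 0.0953. Their log2 fold changes had the same sign in both treatments. Without rat X594 (sham, 24 h) 5 members were called, miR-411-5p, miR-412-5p, miR-434-5p, miR-485-5p and miR-770-5p.

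Whether the members varied as 1 unit from rat to rat was described by the correlation of their log2 CPM after the mean of each group was taken away, over 55 libraries (all but that of rat X747). The points share library depth and scaling, so that one abundant miRNA rising lowers the others, and no test is attached to the medians. The 703 pairs of distinct members had a median Pearson r of 0.0868, with a middle range from -0.0945 to 0.279 and extremes of -0.603 and 0.826. An r above 0.5 was reached by 5.97% of member pairs, beside 3.77% of the 20910 pairs of other miRNAs, whose median r was 0.0114.

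Measured the same way, 2 other clusters had higher medians. The miR-183, miR-96 and miR-182 cluster, made from a single transcript, had a median r of 0.901 over 3 pairs, and the miR-17-92 cluster with its paralogues a median of 0.377 over 28 pairs, all above 0. The 7 neuron-enriched miRNAs, from separate genes, had a median of -0.136 over 21 pairs. The value for the Dlk1-Dio3 cluster depended on the scaling, with 0.224 for total count and 0.148 when scaling factors were taken from the other miRNAs.

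These medians differed little with position in the region. The median r was 0.117 among the 10 members of the Meg3 and Rtl1 side, 0.0704 among the 28 distinct tested members of the miR-379 to miR-410 side and 0.103 across the sides. Distances were counted over the genes of tested members only, so genes called adjacent here and below can have other miRNA genes between them. Adjacent genes had a median of 0.132, genes 2 to 5 apart 0.0798, genes 6 to 10 apart 0.122 and genes more than 10 apart 0.0933. Among the 12 most abundant members, where counting noise is least, the median was 0.231.

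**Figure D5:**
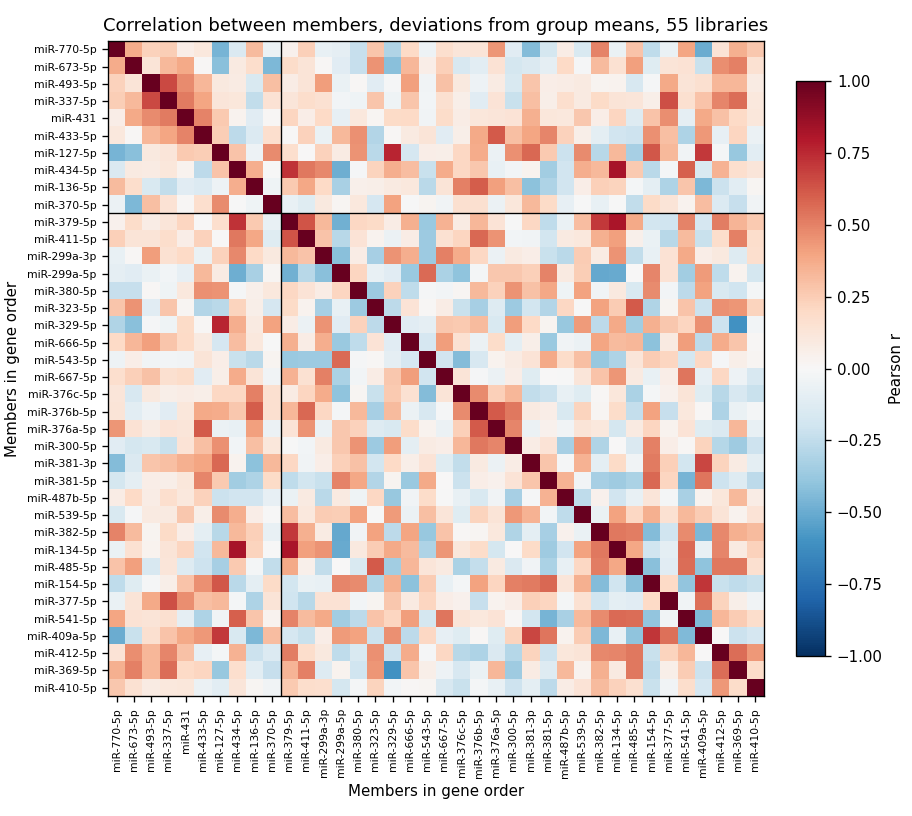
Pearson r between all pairs of the 38 distinct tested members, in gene order on both axes, from deviations of log2 CPM from group means over 55 libraries. Lines divide the Meg3 and Rtl1 side (10 members) from the miR-379 to miR-410 side (28). Red (r above 0) and blue (below 0) cells are mixed throughout, with small red runs along the diagonal at miR-493-5p to miR-433-5p and at miR-376c-5p to miR-300-5p.

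Some neighbouring genes varied together. As a description, an r above 0.5 was reached by 17.1% of the 35 pairs of adjacent genes. It was reached by 6.92% of pairs 2 to 5 genes apart, 5% of those 6 to 10 apart and 5.23% of those more than 10 apart. Among the 12 most abundant members, at any distance, the share was 19.7%, and among pairs of other miRNAs 3.77%. Of 37 pairs of adjacent genes or arms of 1 hairpin, 9 had a positive and 2 a negative r with an adjusted p under 0.05 (permutation of rats within groups, 100000 resamples, two-sided, Benjamini-Hochberg over the 37 pairs). Pairs farther apart and pairs of other miRNAs were not put through this test. The count of passing pairs therefore has no share to be set against and cannot tell neighbours from other pairs. Rats of a group were treated as exchangeable, and sequencing run, which is not named, was not held fixed. On the Meg3 and Rtl1 side the positive pairs were miR-493-5p with miR-337-5p (r = 0.659, rho = 0.712, adjusted permutation p = 0.00037 and 0.000185), miR-337-5p with miR-431 (r = 0.523) and miR-431 with miR-433-5p (r = 0.495). Their genes are consecutive among the member genes.

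At the start of the array, miR-379-5p and miR-411-5p had r = 0.626 and rho = 0.727 (adjusted permutation p = 0.00074 and 0.000185). In the miR-376 run, miR-376b-5p and miR-376a-5p had r = 0.613 and rho = 0.657 (adjusted permutation p = 0.000833 and 0.000247), miR-376a-5p and miR-300-5p r = 0.492, and miR-376c-5p and miR-376b-5p r = 0.469. The last no longer passed by rank (rho = 0.379, adjusted permutation p = 0.0523). The remaining positive pairs were miR-412-5p with miR-369-5p (r = 0.561) and miR-382-5p with miR-134-5p (r = 0.527). With the 2 rats most distant from the first member's median left out, these 9 values lay between 0.356 and 0.722.

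The negative pairs were miR-541-5p with miR-409a-5p (r = -0.438, rho = -0.410, adjusted permutation p = 0.0177 and 0.0286) and the arms of the miR-299a hairpin (r = -0.416, adjusted permutation p = 0.0453; rho = -0.266, adjusted permutation p = 0.165). The 2 arms of a hairpin come from the same precursor molecule. Here the rarer arm, with a median of 10.3 CPM, moved against the other, with a median of 78.6 CPM, though not by rank at the threshold. Reads of the more abundant arm cannot be told apart from those of miR-299b-3p, encoded on the opposite strand. They may thus not all come from that precursor.

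The 3 strongest pairs of all lay far apart in the order of all member genes, over which the distances below are counted. miR-434-5p and miR-134-5p, 24 genes apart and on different sides, had r = 0.826, miR-379-5p and miR-134-5p, 21 genes apart, 0.813, and miR-127-5p and miR-329-5p, 11 genes apart, 0.764. Next came closer pairs, miR-434-5p with miR-379-5p (3 genes apart, r = 0.721) and miR-154-5p with miR-409a-5p (5 genes apart, r = 0.718). The lowest value was that of miR-329-5p and miR-369-5p, at -0.603. These were picked from 703 pairs for their size and are a description. Rat X769 (TBI, 1 m) was the highest of all libraries in miR-134-5p (1036 CPM) and miR-434-5p (9235 CPM). It had 6046 CPM of miR-379-5p, against 3146 to 4410 CPM in the others of its group. How far the r between these members rest on this rat was not tested.

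Set against the mean of all other members, miR-337-5p (r = 0.576) and miR-431 (r = 0.533) followed the cluster most, and miR-299a-5p (-0.0149) and miR-376c-5p (-0.00431) least, with a median of 0.272. The first principal component of the 38 members held 20.2% of their variance, with 21 members loading above and 17 below 0, and 10 components were needed to reach 80%. Its score had an absolute r of 0.922 and an absolute rho of 0.873 with that of the first component of the 205 other miRNAs (55 libraries, r of 0.890 without the 2 farthest), so the leading axis of the cluster was also the leading axis of the remaining miRNAs in the same libraries.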

How the data were processed

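Hippocampal RNA of 56 rats was made into libraries with the NEBNext small RNA kit. With miRDeep2 and miRBase, the authors removed adapters and quantified each mature miRNA, and demultiplexing used bcl2fastq 2.20.0.422 per the submitters' processing notes. The deposited values are raw counts, without normalization. How reads shared by several miRNAs were divided is not given in the sources used here. Of 367 miRNAs, 34 had no count. All 56 columns were used (0 left out).

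Counts were analysed with edgeR 4.0.16 in R 4.3.3 (TMM, filterByExpr, quasi-likelihood test), with Benjamini-Hochberg adjustment over all miRNAs tested, threshold 0.05. Each interval was fitted on its 8 libraries, and the remaining comparisons on all 56, with 1 mean per group. CPM are counts over the TMM-scaled library size, and log2 CPM used a prior count of 2. Standard errors are the log2 fold change over the root of F. The fits were tested on simulated data. Tables and figures used Python 3.11.15. Alternatives were DESeq2 1.42.0 size factors and test, other scalings and filters, the likelihood ratio test, the joint fit, each treatment alone and leaving out each rat. The number at the end of the sample titles, whose run is not named, was not used as a batch.

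Members and lists were chosen with earlier results of these data known. Named members are the 6 most abundant, those called (up to the 5 of lowest p), the one of lowest p at each interval, the 2 highest and 2 lowest in r with the other members, and those failing the filter. Others named were chosen after their values were seen. Sequences and gene order are from RefSeq (GRCr8). Intervals and limits cover counting error only.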

Additional observations from a re-analysis of the deposited data

Results flagged for a closer look

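Of 140 groups of 4 rats, over 10 measures (9 members of high level or with calls, and the summed level), 8 held a rat whose gap to the nearest of the others exceeded Dixon's 95% critical value. Chance flags about 1 in 20 groups, or 7 of 140. miR-369-5p was concerned 3 times: rat X593 (TBI, 24 h) at 994 CPM against 1704 to 1796 CPM in the others, rat X748 (TBI, 2 m) at 2312 CPM against 1291 to 1441 CPM, and rat tube59 (TBI, 6 m) at 1574 CPM against 1697 to 1713 CPM. Rat tube17 (sham, 2 w) had 91.3 CPM of miR-770-5p against 58.3 to 63.7 CPM, and rat X756 (TBI, 1 m) 83.7 CPM against 34.9 to 39.9 CPM. Rat X751 (sham, 2 m) had 4466 CPM of miR-434-5p against 6047 to 6361 CPM. Rat tube60 (TBI, 6 m) had 6701 CPM of miR-411-5p against 5385 to 5560 CPM. Rat X769 (TBI, 1 m) had 3994 CPM of miR-541-5p against 1870 to 2164 CPM.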

How the results depend on the processing

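Named members gave 825 alternative values: 799 kept their direction and their side of the threshold, 25 kept the direction but lost the call, 1 gained it (miR-136-5p at 1 m in the joint fit, adjusted p = 0.0166, edgeR) and 0 reversed. The number of members called moved by more than 1.5 times as follows. At 1 m it was 4 in the joint fit. For the pooled TBI effect it was 0 with total count or no filter, and 0 to 2 on leaving out each rat (2, with miR-136-5p added, without rat X749). For the interaction it was 0 to 1 on leaving out each rat. Between intervals it was 9 in sham rats and 6 in TBI rats alone, with fewer libraries. For 1 y against 24 h it was 0 in either treatment alone and 5 to 10 on leaving out each rat. Leaving out each rat moved the number between intervals less, to 16 to 21. The median r between members was 0.224 with total count, 0.148 with TMM factors from other miRNAs and 0.138 over members with a mean count of at least 100, and 0.0670 to 0.113 on leaving out each rat; the cause was not tested. No paired fit was made. The replicate numbers used here follow accession order and pair no rats, and the number at the end of the sample titles is shared by the treatments only at 1 y, where it was not taken to pair rats. The depth of rat X747, and of the 6 members below the filter, limits what can be seen of rare members.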

Other observations

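A further 7 listed miRNAs lie between the outermost members in RefSeq but are not named by the rule. Of these, miR-3543, miR-3592 and miR-3595 had no count in any library and miR-544-5p did not pass the filter. miR-1188-5p (6.39 CPM), miR-540-5p (11.8 CPM) and miR-6331 (259 CPM) were tested, and miR-6331 differed between intervals (adjusted p = 0.00561, edgeR). Their r with the mean of the members was 0.363, 0.384 and 0.190 over 55 libraries.

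The letters GGUU stood in 10 of the 16 members with a known sequence that loaded below 0 on the first principal component and in 3 of the 20 that loaded above it. The motif was picked after the loadings were seen, was searched in the mature sequence only, and is given as a description. It stood in 41.9% of the 43 members with a sequence and in 16.6% of all 331 listed miRNAs with one. The median GC content was 45.6% on the side below 0 and 51.2% on the side above.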
